A study of Homo sapiens with 7 samples.

Results

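Polyamine synthesis, antizymes and catabolism were followed through 9 genes: ODC1, AMD1, SRM, SMS, SAT1, SMOX, OAZ1, OAZ2 and AZIN1. They were taken by symbol, and all 9 stand among the 19775 genes of the deposited table. The rule names no measured value or threshold, but the list was drawn up with earlier results from the same libraries known. The tests of these 9 genes below therefore describe how the fit across all genes placed them and are not independent evidence. Poly(A) RNA came from wild-type H1 cells, a widely used human embryonic stem cell line, grown in E8, a defined medium with insulin, transferrin, FGF2 and TGFβ. The groups were E8 medium alone harvested at 48 h (2 libraries) and E8 with XMD892 at 1 µM for 12 h (1 library), 24 h (2 libraries) or 48 h (2 libraries). XMD892 is a kinase inhibitor that the series title links to ERK5. E8 was sampled only at 48 h, so time in culture and inhibitor cannot be told apart at 12 h and 24 h, and the labels do not say whether replicates came from separate cultures, so the p-values rest on library-to-library spread that may be technical.

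Polyamines are small, positively charged molecules that bind RNA, DNA and chromatin and that dividing cells need. Ornithine decarboxylase (ODC1) makes putrescine, S-adenosylmethionine decarboxylase (AMD1) supplies the aminopropyl donor, and spermidine synthase (SRM) and spermine synthase (SMS) add aminopropyl groups in turn. Antizymes (OAZ1, OAZ2) bind ODC and send it to the proteasome, antizyme inhibitor (AZIN1) ties up antizyme, and SAT1 and SMOX run the pathway backwards by acetylating or oxidising polyamines. Antizyme is made by a polyamine-driven ribosomal frameshift and AMD1 and ODC are also controlled after transcription, so RNA levels are only one layer of this pathway.

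ODC1, SRM and SAT1 are shown here by sequence because they are the 3 members that passed the test in at least 1 comparison. ODC1 and SRM are textbook targets of MYC, which binds the E-box with its partner MAX. The 3 longer stretches lie before a RefSeq start site (GRCh38.p14), are cut to bases outside the exons that GENCODE 29 gives for these genes, and are written on the gene's strand. The short stretch with the second ODC1 E-box, on the same strand, spans the second RefSeq start of ODC1, and its E-box lies after that start. Capitals mark the E-box CACGTG, which reads the same on both strands.
ODC1 first intron, chr2:10448013-10448120, minus strand: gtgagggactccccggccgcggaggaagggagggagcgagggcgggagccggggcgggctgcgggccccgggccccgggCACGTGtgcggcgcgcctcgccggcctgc
ODC1 second E-box nearby, chr2:10447990-10448019, minus strand: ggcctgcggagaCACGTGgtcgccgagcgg
SRM upstream, chr1:11060025-11060268, minus strand: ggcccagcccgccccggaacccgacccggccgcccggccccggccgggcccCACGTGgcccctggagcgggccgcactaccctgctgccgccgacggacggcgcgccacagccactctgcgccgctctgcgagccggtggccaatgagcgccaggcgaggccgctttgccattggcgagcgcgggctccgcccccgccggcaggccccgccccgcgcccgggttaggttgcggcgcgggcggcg
SAT1 upstream, chrX:23782923-23783172, plus strand: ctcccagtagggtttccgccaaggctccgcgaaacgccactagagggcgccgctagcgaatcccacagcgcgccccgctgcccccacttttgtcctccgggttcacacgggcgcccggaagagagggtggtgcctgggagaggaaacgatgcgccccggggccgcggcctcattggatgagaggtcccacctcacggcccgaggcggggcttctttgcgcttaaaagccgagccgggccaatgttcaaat

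RefSeq windows of 300 bases, 250 before to 50 after a start, were searched for 7 of the 9 members, which had 10 windows. SMOX and AZIN1 were not searched. The E-box stood in windows of 2 of the 7 members. The window of the second ODC1 start held 2 matches, that of its first start none, and the SRM window 1. Of 35116 such windows of all genes, 7.26% held the same letters. This share counts windows, and a gene with several starts has more than 1 window. A match describes the letters and is not a measured binding site.

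The libraries held between 18528689 and 24148186 reads in listed genes, and 16351 genes whose normalised read count averaged 10 or more were tested. All 10 pluripotent cell markers were listed above a mean of 10, with summed levels from 177746 to 211310 over all libraries, but single markers differed. POU5F1 in the treated libraries lay between 42265 and 67878 against 46006 and 67034 in E8. NANOG was lower in every treated library (2552 to 4138 against 6631 and 5818 in E8), as were TDGF1 (6213 to 7791 against 11878 and 10254) and SALL4 (2536 to 3196 against 3913 and 3470). Of the endoderm markers SOX17, FOXA2, GATA6 and GATA4 only GATA4 was listed, at 12.4 and 14.0 in E8 and between 0 and 3.74 with XMD892. TBXT, which marks the primitive streak, was not listed. The streak and mesoderm markers (3 of 4 listed) summed to 269 and 289 in E8 and to between 53.7 and 103 with XMD892, most of it MIXL1 in E8 (264 and 247). The trophoblast and amnion markers (3 of 4 listed) summed to 163 and 202 in E8 and to between 79.1 and 136 with XMD892, most of it KRT7. The neuroectoderm markers (2 of 4 listed) summed to 278 and 289 in E8 and to between 177 and 357 with XMD892, and parted at 48 h. SOX1 was at 33.2 and 48.8 in E8 and 79.9 and 111 at 48 h, and OLIG3 at 244 and 240 in E8 and 97.2 and 100.2 at 48 h. The fibroblast markers (3 of 4 listed) summed to between 6835 and 8568, most of it THY1 at 3970 to 6093. COL1A1 among them was at 481 and 589 in E8, 1534 after 12 h, 882 and 851 after 24 h and 361 and 324 after 48 h. The part of these markers in the results below was not tested. In bulk RNA, fewer cells with a transcript and less transcript per cell cannot be told apart. The replicate difference within E8 followed transcript GC content, with a Spearman correlation of -0.64 across 16023 genes, which are not independent replicates. For the 9 polyamine genes, results are therefore also given with each library's GC trend removed where that changed a call. For SRM the levels and the value at 24 h are given as well. For other genes counts of calls are given with the trend removed, and single values only for DOHH, ATP13A2 and GPC1 at 24 h.

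ODC1, on chromosome 2 at 10439968 to 10448504 (GRCh38), was higher in every XMD892 library than in either E8 library. Its normalised read count was 2757 and 2888 in E8, 8613 after 12 h, 8031 and 6526 after 24 h and 5628 and 5563 after 48 h. The 12 h library stood highest, the 48 h pair lay below both 24 h libraries, and no treated library overlapped E8. ODC1 stood 3.05-fold over E8 at 12 h (log2 fold change 1.61, SE 0.176, limma adjusted p = 3.8e-06). The ratio was 2.58 at 24 h (limma log2 fold change 1.36, adjusted p = 1.9e-06) and 1.98 at 48 h (limma log2 fold change 0.99, adjusted p = 8e-05). Under the 17 alternative settings the log2 fold change of ODC1 lay from 1.57 to 1.64 at 12 h, from 1.21 to 1.51 at 24 h and from 0.95 to 1.02 at 48 h, and it passed in each of them. The step from 24 h to 48 h, a log2 difference of -0.37 (95% interval -0.67 to -0.07), did not pass (limma adjusted p = 0.26). It did pass in fits without E8 replicate 1 or 2 (limma adjusted p = 0.038 in each), in which the E8 pair no longer enters the shared spread.

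**Figure D1:**
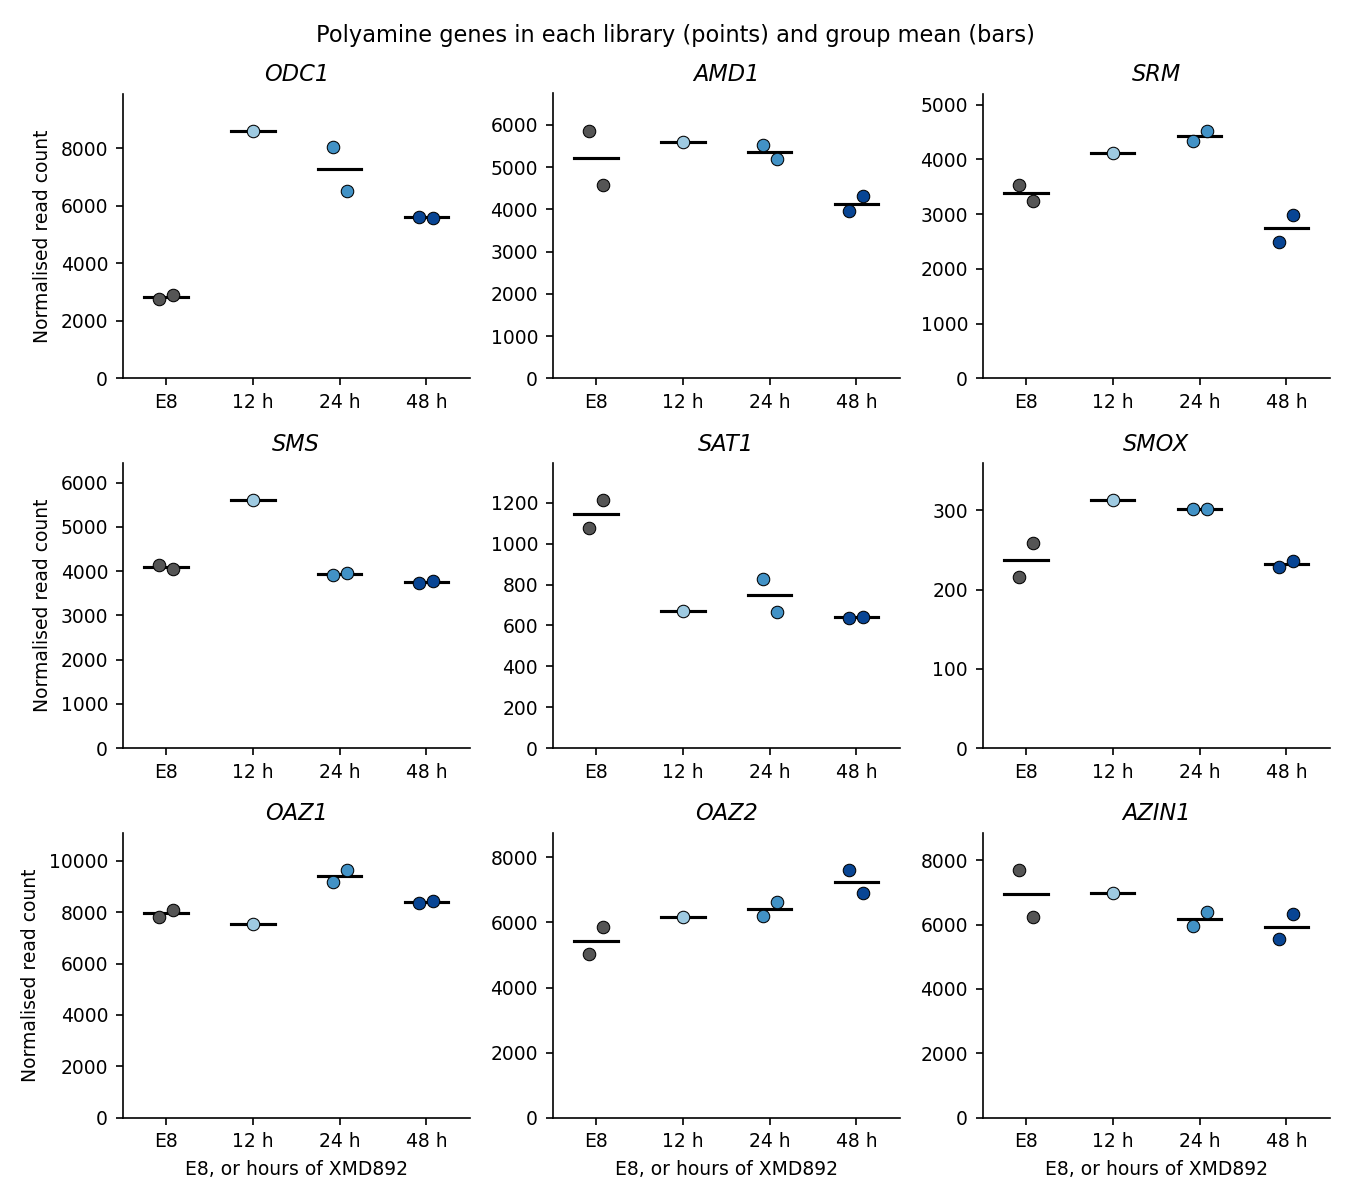
Normalised read count of each of the 9 polyamine genes, with 1 point per library and a black bar at the group mean, for E8 and for 12, 24 and 48 h of XMD892. ODC1 lies between 5563 and 8613 in the treated libraries against 2757 and 2888 in E8, SAT1 between 637 and 825 against 1075 and 1211, and the group means of the other genes span 1.18-fold to 1.62-fold.

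AMD1, whose enzyme makes the aminopropyl donor, lies on chromosome 6 at 110874770 to 110895713 and did not pass in any comparison. Its normalised read counts were 5864 and 4577 in E8, 5586 after 12 h, 5533 and 5194 after 24 h and 3959 and 4306 after 48 h. The E8 libraries themselves differed 1.28-fold, the widest E8 pair among the 9 genes, and both 12 h and 24 h values fell between them. At 48 h both libraries lay under E8, by -0.33 on the log2 scale (95% interval -0.63 to -0.02, limma adjusted p = 0.16). AMD1 has a transcript GC content of 37.7%, the lowest of the 9, and 4 processed pseudogenes carry its name in GENCODE 29, whose shared reads cannot be traced here. Across the 17 alternative settings its value at 48 h lay from -0.51, without E8 replicate 2, to -0.15. Against 24 h, AMD1 at 48 h differed by -0.38 (limma adjusted p = 0.27), and by -0.42 with the GC trend removed (limma adjusted p = 0.0289).

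SRM, which makes spermidine and lies on chromosome 1 at 11054584 to 11060024, stood at 3526 and 3249 in E8, 4125 after 12 h, 4344 and 4525 after 24 h and 2497 and 2993 after 48 h. In these values the 24 h pair was the highest and the 48 h pair the lowest, with no overlap between any of the groups. With the GC trend removed, SRM stood at 4401 and 2920 in E8 and 4557 after 12 h. It then stood at 3823 and 4110 after 24 h and 2531 and 2979 after 48 h. The E8 pair thus overlapped the 24 h and 48 h pairs, and the 12 h library was the highest. SRM fell from 24 h to 48 h by 0.70 on the log2 scale (SE 0.144, limma adjusted p = 0.014), 1.62-fold lower. SRM was the only member called between these times by limma, edgeR or DESeq2. The call was lost without either 24 h library (limma adjusted p = 0.11 without replicate 1 and 0.12 without replicate 2), without 48 h replicate 1 (limma adjusted p = 0.42) and with the GC trend removed (log2 difference -0.53, limma adjusted p = 0.076). SRM has a transcript GC content of 63.7%, the highest of the 9, and 2 pseudogenes carry its name. Against E8 the log2 fold change of SRM at 24 h was 0.39, and 0.14 with the GC trend removed. Its values of 0.29 at 12 h, 0.39 at 24 h and -0.31 at 48 h did not pass (limma adjusted p = 0.36, 0.068 and 0.17). At 24 h it passed without E8 replicate 1 (limma adjusted p = 0.028), and at 48 h without E8 replicate 2 (limma adjusted p = 0.043).

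SMS, which turns spermidine into spermine and lies on chromosome X at 21940573 to 21994835, kept within 3741 to 4148 in the E8, 24 h and 48 h libraries, and only the single 12 h library stood apart, at 5600. That library gave a log2 fold change of 0.45 (95% interval 0.10 to 0.80), which did not pass (limma adjusted p = 0.10). It passed with the GC trend removed (0.47, limma adjusted p = 0.011), a fit that called 16.8% of all tested genes at 12 h, against 7.46% otherwise. Without E8 replicate 1 or 2 the value was 0.46 or 0.43. With 1 library at 12 h, the value has no replicate check. At 24 h and 48 h the log2 fold changes of SMS were -0.06 and -0.13.

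SAT1 encodes the acetyltransferase that marks spermidine and spermine for export or oxidation, and lies on chromosome X at 23783173 to 23786226. It was the only member lower than E8 by the test. Its normalised read counts were 1075 and 1211 in E8, 669 after 12 h, 825 and 668 after 24 h and 637 and 641 after 48 h. Every treated library lay under both E8 libraries. At 12 h SAT1 fell by 0.77 on the log2 scale (SE 0.198, limma adjusted p = 0.019). The log2 fold change was -0.62 at 24 h (limma adjusted p = 0.012) and -0.84 at 48 h (limma adjusted p = 0.0016), 1.79-fold lower than E8. The call at 24 h was lost without 24 h replicate 2, where the value was -0.47 (limma adjusted p = 0.21). At 12 h and 48 h it passed in all 17 alternative settings. Between 24 h and 48 h SAT1 differed by -0.22 (95% interval -0.55 to 0.12, limma adjusted p = 0.63).

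SMOX, the oxidase that returns spermine to spermidine, on chromosome 20 at 4120980 to 4187747, had the lowest level of the 9. It stood at 216 and 259 in E8, 312 after 12 h, 301 and 302 after 24 h and 228 and 236 after 48 h. The 12 h and 24 h libraries lay above E8 and the 48 h pair between the E8 libraries. The log2 fold changes of 0.40, 0.35 and -0.03 against E8 did not pass (limma adjusted p = 0.30, 0.21 and 0.95).

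OAZ1, the main antizyme, on chromosome 19 at 2269509 to 2273490, was at 7818 and 8095 in E8, 7539 after 12 h, 9163 and 9632 after 24 h and 8347 and 8428 after 48 h. Its 95% intervals against E8 ran from -0.42 to 0.27 at 12 h, from -0.04 to 0.52 at 24 h and from -0.21 to 0.36 at 48 h on the log2 scale. These intervals lie below the log2 fold changes of ODC1 at the same times. OAZ1 shares 236 exonic bases with JSRP1 on the opposite strand. Whether reads were counted by strand is not given in the sources used here.

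OAZ2, another broadly expressed antizyme, on chromosome 15 at 64687573 to 64703281, was at 5037 and 5844 in E8, 6170 after 12 h, 6204 and 6624 after 24 h and 7605 and 6899 after 48 h. Every treated library lay above both E8 libraries and the 48 h pair was highest. Its log2 fold change at 48 h was 0.42 (95% interval 0.12 to 0.71, limma adjusted p = 0.059), just short of the threshold. It passed at 48 h with the GC trend removed (0.43, limma adjusted p = 0.00869) and without E8 replicate 2 (0.52, limma adjusted p = 0.0031). At 24 h the value was 0.24, which did not pass (limma adjusted p = 0.26), and it was 0.35 without E8 replicate 2. OAZ2 shares 554 exonic bases with the antisense gene AC100830.3.

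AZIN1, a relative of ODC that has no decarboxylase activity and binds antizyme instead, did not pass in any comparison. It stood at 7691 and 6234 in E8, 6983 after 12 h, 5965 and 6399 after 24 h and 5542 and 6327 after 48 h. The E8 pair, 1.23-fold apart, overlapped the 12 h, 24 h and 48 h libraries. The log2 fold changes against E8 were 0.01, -0.16 and -0.23. Across the 17 alternative settings the last lay from -0.38, without E8 replicate 2, to -0.07. AZIN1 shares 344 exonic bases with AZIN1-AS1 on the opposite strand.

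**Figure D2:**
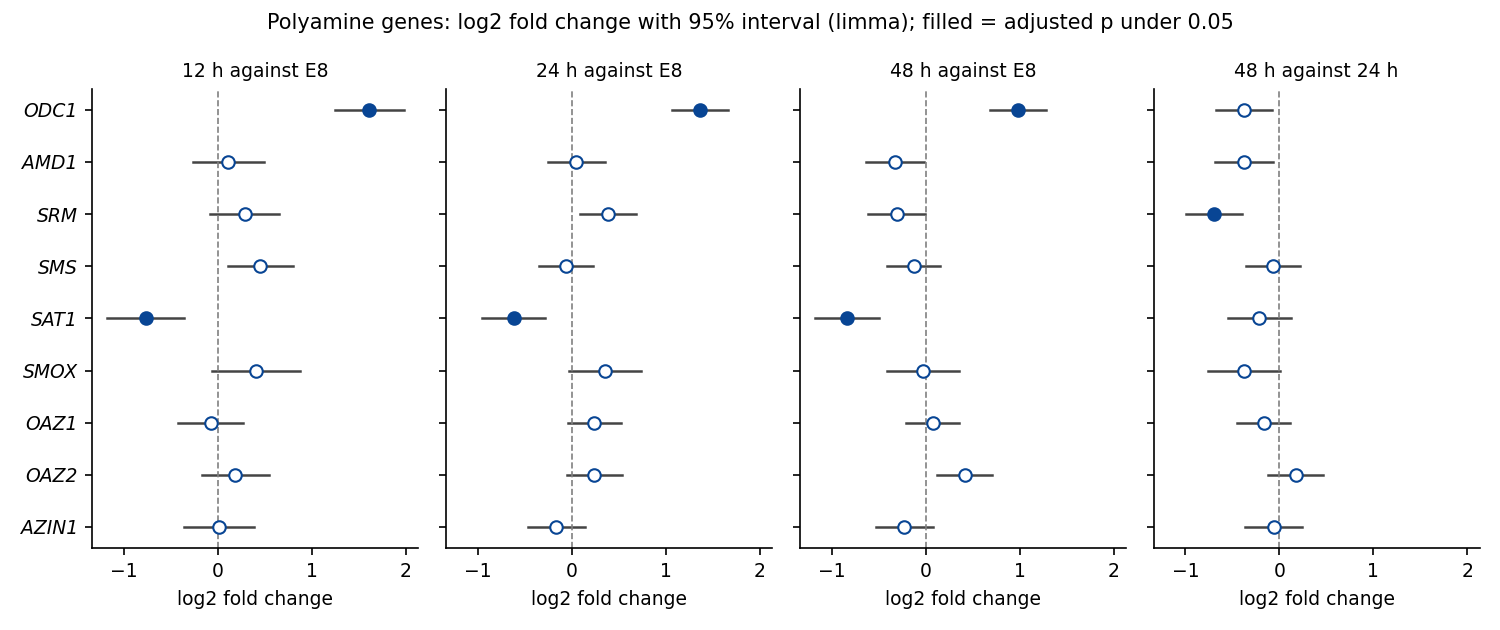
Log2 fold change of each polyamine gene in 4 comparisons from limma, with lines for the 95% interval and filled points for an adjusted p under 0.05 over all 16351 tested genes. ODC1 is filled above 0 and SAT1 filled below 0 at 12, 24 and 48 h against E8, and SRM is the 1 filled point of 48 h against 24 h.

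Counted over the 9 genes, 1 was called higher (ODC1), 1 lower (SAT1) and 7 did not pass at each of 12, 24 and 48 h against E8. Of all tested genes 7.46% were called at 12 h (2.56% higher and 4.89% lower), 16.2% at 24 h (8.66% and 7.56%) and 11.5% at 48 h (5.08% and 6.45%). From 24 h to 48 h, 1 member was called lower (SRM) and 8 did not pass, against 1.2% of all tested genes (0.349% higher and 0.856% lower). Because the genes were chosen with results known, nothing is read from these shares. The 3 comparisons with E8 share both control libraries, so their agreement is no repeat of a result. The members' median log2 fold change was 0.19 at 12 h, 0.24 at 24 h and -0.13 at 48 h, beside 0.02, 0.01 and 0.02 for all tested genes. Without E8 replicate 2 the call count at 48 h was 6, with OAZ2 also higher and AMD1, SRM and AZIN1 also lower, while the share of all tested genes called in that fit was 24.8%. Without 24 h replicate 2 the count at 24 h was 1, beside 10.6% of all tested genes. From 24 h to 48 h the count was 3 without either E8 library (ODC1, AMD1 and SRM, all lower), beside 6.39% of all tested genes without replicate 1 and 6.26% without replicate 2.

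To set the genes beside each other, counts were divided by the exonic length of each gene in GENCODE 29, which ignores which transcript is used. In E8, OAZ1 was highest at 6931 ± 171 normalised reads per kilobase (SD, n = 2). OAZ2 (2813 ± 295) and SRM (2676 ± 154) followed and overlapped each other. SMS stood at 2234 ± 34.1 reads per kilobase, and AMD1 (1497 ± 261) and AZIN1 (1431 ± 212) overlapped. ODC1 had rank 7 in this order at 954 ± 31.2, above SAT1 at 679 ± 57.4 and SMOX at 94.1 ± 12.1 reads per kilobase. At 12 h ODC1 reached 2910 reads per kilobase and rank 5, above AMD1 and AZIN1. At 24 h it had rank 4 at 2459 ± 360, above SMS at 2141 ± 18.9, and at 48 h rank 5 at 1890 ± 15.6, below SMS at 2044 ± 10.8. SAT1 and SMOX had ranks 8 and 9 in all 4 groups. The level of ODC1 per length relative to SAT1 in the same library was 1.46 and 1.36 in E8, 7.32 after 12 h, 5.54 and 5.56 after 24 h and 5.02 and 4.94 after 48 h. Relative to OAZ1, which stayed the highest member in every group, ODC1 per length was 0.137 and 0.138 in E8, 0.443 after 12 h, 0.340 and 0.263 after 24 h and 0.262 and 0.256 after 48 h.

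The pattern of ODC1 was compared with that of 11365 other genes that had a mean of 100 or more, as the root mean square difference of their 7 log2 values, each taken from the gene's own E8 mean. ODC1 was the only member whose highest and lowest group means differed 2-fold or more, at 3.05-fold. The nearest gene was ADI1, with a root mean square difference of 0.12 on the log2 scale. ADI1 is acireductone dioxygenase of the methionine salvage pathway, which recycles the methylthioadenosine that spermidine and spermine synthesis release, and it is also on the pathway list used below. Next came SLFN5, a Schlafen family gene, at 0.18 and METTL1, which methylates guanosine in tRNA, at 0.20. SLFN5 was at 75.1 and 57.8 in E8 and between 116 and 182 with XMD892, and METTL1 at 185 and 259 and between 406 and 577. SLFN5 and METTL1 were chosen for their likeness to ODC1, so their levels are a description.

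**Figure D3:**
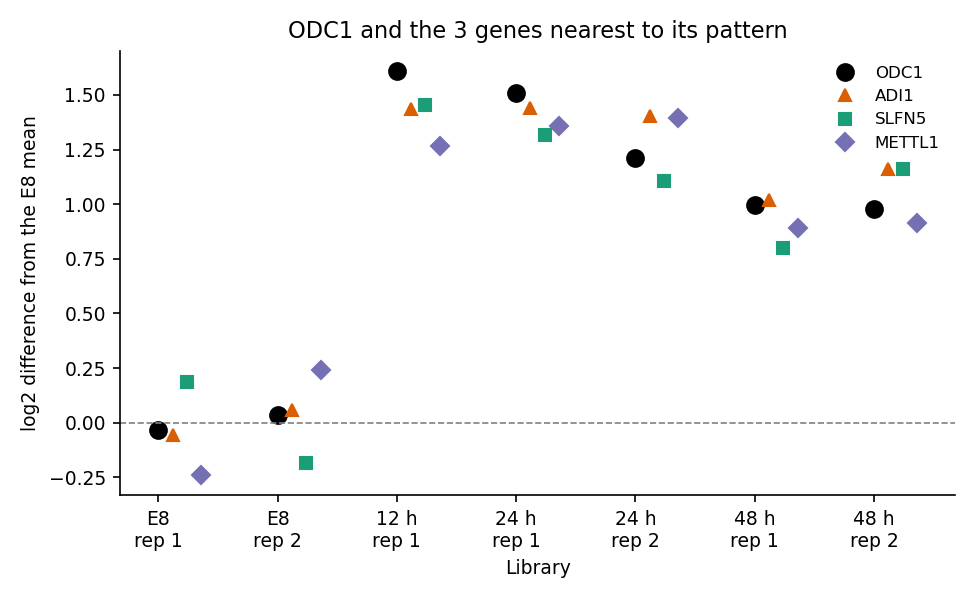
Log2 difference from the gene's own E8 mean in each of the 7 libraries for ODC1 and the 3 genes nearest to its pattern. ODC1 and ADI1 are highest at 12 h and 24 h replicate 1, where ODC1 has the larger value, and both lie lower in the 48 h libraries.

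Other genes of polyamine metabolism and transport were listed by role, also with earlier results known: 35 genes, of which 33 were listed and tested, while ARG1 and SLC22A16 were not analysed here. Of the 33, 2 rose, 2 fell and 29 did not pass at 12 h, 6 rose, 3 fell and 24 did not pass at 24 h, and 1 rose, 4 fell and 28 did not pass at 48 h. Their median log2 fold changes were 0.12, 0.04 and 0.02, beside 0.02, 0.01 and 0.02 for all tested genes. The called share of all tested genes was 7.46%, 16.2% and 11.5% at these times. The counts moved with single libraries, and so did the share of all tested genes called in the same fit. At 24 h, 3 pathway genes passed without 24 h replicate 1 (6.76% of all tested genes) and 5 without E8 replicate 1 (10.4%). Without E8 replicate 2, 9 passed at 12 h (18% of all tested genes) and 15 at 48 h (24.8%). With the GC trend removed, 12 passed at 48 h, 7 higher and 5 lower, beside 21.2% of all genes tested in that fit.

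Genes that supply ornithine (ARG2, OAT, AGMAT, ASS1 and ALDH18A1) had 0 of 5 called at 12, 24 or 48 h by limma, edgeR or DESeq2. At an unadjusted p under 0.05 each tool gave 0 of them at 12 h, 1 at 24 h (OAT, higher) and 1 at 48 h (ASS1, lower), beside 22.5%, 30.4% and 26.7% of all tested genes by limma. In the S-adenosylmethionine and methionine salvage group of 8, ADI1 rose at all 3 times. ADI1, on chromosome 2 at 3497361 to 3519736, was at 534 and 579 in E8, 1505 after 12 h, 1511 and 1475 after 24 h and 1128 and 1245 after 48 h. All treated libraries lay well above E8, 2.70-fold at 12 h (log2 fold change 1.43, limma adjusted p = 3.5e-05). The ratio was 2.68 at 24 h (limma log2 fold change 1.42, adjusted p = 2e-06) and 2.13 at 48 h (limma log2 fold change 1.09, adjusted p = 4.8e-05). ADI1 passed in all 17 alternative settings at each time, and it shares 369 exonic bases with the antisense gene AC231981.1. MRI1, an isomerase of the same salvage route, rose at 24 h from 284 ± 55.0 to 495 ± 32.0 (SD, n = 2; log2 fold change 0.81, limma adjusted p = 0.0053), and its adjusted p was 0.053 without 24 h replicate 1. MTAP, MAT2A, MAT2B, APIP, ENOPH1 and AHCY were not called at 12, 24 or 48 h.

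Spermidine is also used to build hypusine in EIF5A, in steps run by DHPS and DOHH. DOHH rose at 24 h from 574 ± 138 to 908 ± 5.68 (log2 fold change 0.68, limma adjusted p = 0.011) and was at 620 ± 21.2 at 48 h. DOHH has a transcript GC content of 67.5%, and with the GC trend removed it rose less at 24 h, by 0.41, and still passed. Its adjusted p at 24 h was 0.069 without E8 replicate 1 and 0.06 without 24 h replicate 1. EIF5A stood at 11140 and 14783 in E8 and between 15218 and 16948 with XMD892, and it, EIF5A2 and DHPS did not pass. Neither SAT2 nor PAOX, the remaining acetylation and oxidation genes, nor OAZ3 and AZIN2 were called at 12, 24 or 48 h by limma, edgeR or DESeq2. At an unadjusted p under 0.05, limma gave 1 of these 4 at 12 h (PAOX, lower), 0 at 24 h and 1 at 48 h (SAT2, higher). The share of all tested genes past that threshold by limma was 22.5%, 30.4% and 26.7% at these times.

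Transport genes moved in both directions. SLC22A3, an organic cation transporter known to carry polyamines, was at 260 and 284 in E8, 135 after 12 h, 123 and 99.1 after 24 h and 40.0 and 39.7 after 48 h. Its level was lower at each later time with no overlap between groups, and at 48 h it was 6.84-fold under E8 (log2 fold change -2.74, SE 0.229, limma adjusted p = 6.2e-08). SLC47A1, a proton antiporter of organic cations, was at 91.7 and 76.0 in E8 and between 15.1 and 31.2 with XMD892, with a log2 fold change of -2.08 at 48 h (limma adjusted p = 0.00056). It was also called at 12 h (-2.06, limma adjusted p = 0.0055) and 24 h (-1.44, limma adjusted p = 0.0093), the last not without E8 replicate 1 (0.078). CAV1, the caveolin that has been tied to polyamine uptake, was at 573 and 486 in E8, 790 after 12 h, 361 and 326 after 24 h and 123 and 109 after 48 h. It was highest in the 12 h library, where it did not pass (limma adjusted p = 0.11), and then fell, to 4.56-fold under E8 at 48 h (log2 fold change -2.18, limma adjusted p = 5.7e-08). The change of CAV1 at 24 h was -0.62 (limma adjusted p = 0.023), which was lost without either 24 h library or E8 replicate 1 (limma adjusted p from 0.086 to 0.18).

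At 24 h, 3 other transport genes rose. ATP13A2, a lysosomal polyamine exporter, rose from 2182 ± 403 to 3210 ± 31.0 (log2 fold change 0.57, limma adjusted p = 0.013). SLC3A2, the heavy chain of several amino acid transporters and linked to polyamine efflux, rose from 6470 ± 1347 to 10028 ± 896 (log2 fold change 0.64, limma adjusted p = 0.0069). GPC1, a glypican whose heparan sulfate binds polyamines, rose from 1540 ± 319 to 2294 ± 43.8 (log2 fold change 0.59, limma adjusted p = 0.013). The transcript GC content is 64.3% for ATP13A2 and 66.7% for GPC1. With the GC trend removed, their log2 fold changes at 24 h were smaller, 0.32 and 0.33, and still passed. Without 24 h replicate 1 the adjusted p was 0.11 for ATP13A2, 0.096 for SLC3A2 and 0.11 for GPC1. ATP13A2 and GPC1 also lost their calls without 24 h replicate 2 (limma adjusted p = 0.0720 and 0.0594) and without E8 replicate 1 (0.057 and 0.066). ATP13A3, SLC7A1, SLC12A8 and SLC18B1 did not pass against E8 at 12, 24 or 48 h by limma, edgeR or DESeq2. SLC7A2, a carrier of arginine and other cationic amino acids, was at 1252 and 1061 in E8 and 775 and 910 at 24 h. Its value of -0.46 on the log2 scale was just short of the threshold in limma (adjusted p = 0.053). SLC7A2 was called lower at 24 h by edgeR (adjusted p = 0.0463) and DESeq2 (adjusted p = 0.0474).

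NQO1, a quinone reductase that also shields ODC from degradation by the core proteasome, was at 636 and 711 in E8, 1252 after 12 h, 847 and 736 after 24 h and 446 and 329 after 48 h. It was higher at 12 h (log2 fold change 0.90, limma adjusted p = 0.012) and lower at 48 h (-0.81, limma adjusted p = 0.0039), the latter not without 48 h replicate 2 (-0.59, limma adjusted p = 0.12). NQO1 shares 575 exonic bases with the antisense gene AC092115.2.

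**Figure D4:**
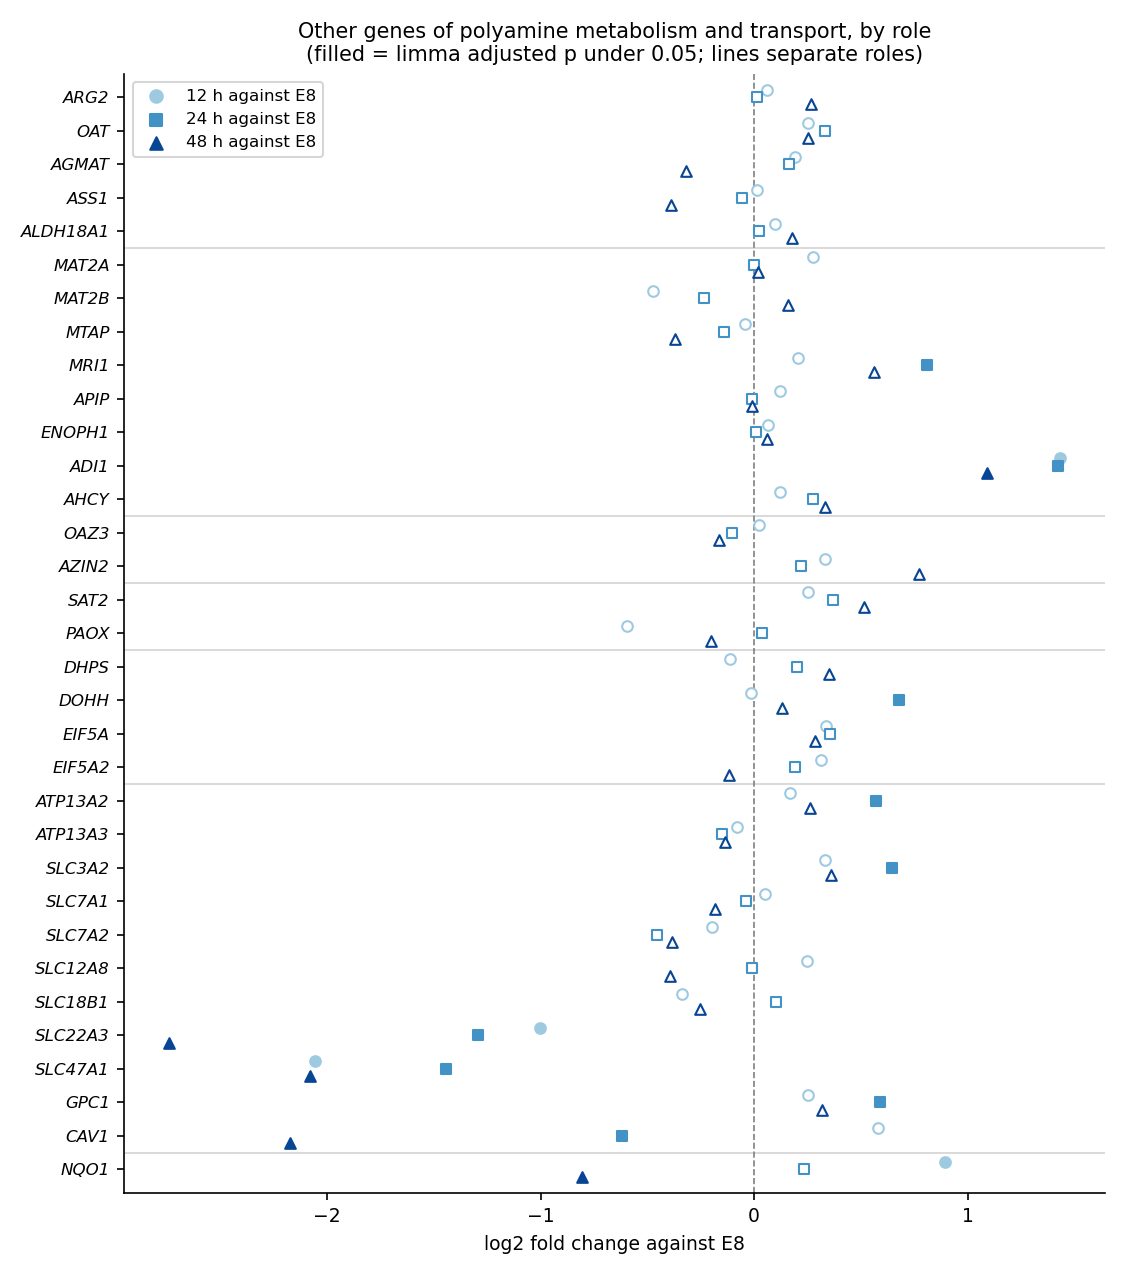
Log2 fold change against E8 of the 33 other tested genes of polyamine metabolism and transport, grouped by role with grey lines, at 12 h (circles), 24 h (squares) and 48 h (triangles) of XMD892, filled where the adjusted p is under 0.05. ADI1 is filled above 0 at all 3 times, SLC22A3 and SLC47A1 are filled below 0 at all 3, and most other points are open.

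The MYC family was set beside the E-box genes shown above. MYC was at 2201 and 2230 in E8, 2672 after 12 h, 3464 and 2943 after 24 h and 2152 and 2087 after 48 h. It rose at 24 h (log2 fold change 0.53, limma adjusted p = 0.016; 0.41 and 0.30 without 24 h replicate 1) and at 48 h stood at -0.06 against E8 (limma adjusted p = 0.82). MYCN was at 1849 and 2209 in E8, 2592 after 12 h, 3610 and 3374 after 24 h and 2230 and 2549 after 48 h, and rose at 24 h (log2 fold change 0.79, limma adjusted p = 0.0012). MYCL was lower at 12 h, at 375 against 590 and 807 (log2 fold change -0.88, limma adjusted p = 0.012), and did not pass at 24 h or 48 h. MYC, MYCN and SRM had their highest group mean at 24 h and ODC1 at 12 h. With the GC trend removed, the 12 h library of SRM (4557) stood above both of its 24 h libraries (3823 and 4110). At 48 h ODC1 was still 1.98-fold over E8, while MYC and MYCN did not pass (limma adjusted p = 0.82 and 0.32). Whether MYC proteins take part in any of these changes was not tested.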

How the data were processed

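Poly(A) RNA of 7 libraries was sequenced in read pairs. Trimmomatic 0.36, STAR, featureCounts 1.5.3, DESeq2 1.26.0 and hg38 are named in the submitters' processing notes, with no role or order, and the annotation, strand setting and filters are not given in the sources used here. The values the authors deposited are a signal per gene symbol, which behaves as read counts divided by 1 factor per library: 100% of values were within 0.1 of a whole number of reads. Another 2 columns match no sample and were not used. Genes with a mean of 10 or more (16351) were taken to log2 after adding 1, so fold changes are on the log2(value + 1) scale. Ratios printed as fold are of group means. One model over the 7 libraries, with a mean for each group, was fitted in limma 3.58.1 (R 4.3.3) using a trended prior variance (3 residual degrees of freedom, prior 18.4). Genes count as called when the p-value, adjusted by Benjamini-Hochberg across every tested gene, is under 0.05. The lone 12 h library is assumed to vary like the others, as is the library left when a replicate is dropped. The script was tested on simulated data. Symbols were matched to GENCODE 29 (19319 of 19775), and promoter windows come from RefSeq.

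The 9 members and the lists were chosen with earlier results of these data known. The genes named are the 9 members, the listed pathway genes that were called, the MYC family and the 3 genes nearest to the ODC1 pattern. The 17 alternatives were a pseudocount of 0.5 or 5, a filter at a mean of 50 or none, TMM factors, equal totals, edgeR 4.0.16 and DESeq2 1.42.0 on recovered reads, robust moderation, a replicate block, removal of the GC trend (loess, span 0.3) and leaving out each replicate.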

Additional observations from a re-analysis of the deposited data

Results flagged for a closer look

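The effects at 24 h and at 48 h, both against the same E8 libraries, differed by the limma test of 48 h against 24 h for 5 named genes. SRM differed by -0.70 on the log2 scale, SLC22A3 by -1.45 (limma adjusted p = 0.0012), CAV1 by -1.56 (limma adjusted p = 3.7e-05), NQO1 by -1.04 (limma adjusted p = 0.002) and MYC by -0.59 (limma adjusted p = 0.046). Each was lower at 48 h in both libraries than in both 24 h libraries. SLC22A3 and CAV1 passed in all 17 alternative settings. NQO1 did not pass without 48 h replicate 2 (limma adjusted p = 0.079), and MYC did not pass with TMM factors (limma adjusted p = 0.0554) or with any 1 of the 24 h and 48 h libraries left out (0.086 to 0.63).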

How the results depend on the processing

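Single gene values were tracked for all comparisons of the 9 polyamine genes. Pathway and MYC family genes were tracked only where the main fit called them, so they could lose a call but not gain 1. SLC7A2 at 24 h, called by edgeR and DESeq2, is therefore not among them. Over these 61 values and their alternatives, 982 of 1034 recomputed values kept direction and side of the threshold. Of the rest, 27 lost a call, 15 gained a call and 10 changed sign without being called. The sign changes were AZIN1 at 12 h (-0.000649 with equal totals, -0.000493 with edgeR, -0.00129 with DESeq2, and -0.14 to 0.16 with 1 library left out; 0.01 otherwise), OAZ1 at 48 h (-0.0116 with the GC trend removed), SMS at 24 h (0.00876 with the GC trend removed), and, with 1 library left out, SMOX at 48 h (-0.16 to 0.10), AMD1 at 24 h (-0.13 to 0.23), AMD1 at 12 h (-0.0699 to 0.29) and AZIN1 from 24 h to 48 h (-0.16 to 0.0342). With the GC trend removed, calls over all genes were 3389 at 48 h (1920 higher, 1469 lower; 1884, with 830 and 1054, otherwise), 2692 at 12 h (1407 and 1285; 1219, with 419 and 800, otherwise) and 415 from 24 h to 48 h (173 and 242; 197, with 57 and 140, otherwise), and 12 other pathway genes passed at 48 h instead of 5; the cause was not tested. Leaving out 1 library gave 791 to 4057 genes at 48 h, 1105 to 4917 at 24 h (2652 with all), 1021 to 2941 at 12 h and 64 to 1045 from 24 h to 48 h. For the 9 polyamine genes it gave 2 to 6, 1 to 3, 2 to 3 and 0 to 3, and for the other pathway genes 4 to 15, 3 to 13, 4 to 9 and 2 to 5, in the same order. Dropping an E8 library also removes the E8 pair from the shared spread.

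The differences between replicates 1 and 2 showed almost no correlation between groups (-0.04, -0.05 and -0.07). The labels do not say what the replicate numbers mean. These correlations cannot show whether same-numbered libraries were handled together, because the E8 difference also followed GC content. With the replicate number as a block, 2 polyamine genes were called at 48 h, 24 h and 12 h and 1 from 24 h to 48 h, as without it, and 1955, 2630, 1231 and 290 genes over all. Among the single gene values tracked above, no call changed under the block.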
